A study of Homo sapiens with 12 samples.

Results

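Lysosome and autophagy genes were followed in RKO cells, a human colon cancer line, given either 400 uM (fed) or 12.5 uM (starved) arginine over 24 hours. Ribosome profiling, which sequences the mRNA fragments that ribosomes protect (footprints), was run beside RNA-seq, with 3 libraries for each treatment and assay and 12 in all. All cells were labelled wild type, and both treatments used arginine-free DMEM with dialysed serum to which arginine was added back. The genes were taken by name from a list of 12 transcript identifiers for 10 genes. The list was chosen with earlier results of these data known. Of these, 9 genes had a row in both count tables, 1 transcript each, among 19686 transcripts shared by the tables. GABARAPL1 and the remaining LAMP2 identifiers were not analysed here. Separate cultures are not stated for the libraries of a group, and the spread that the p-values rest on may thus be technical. Every result comes from this 1 cell line in bulk, where fewer cells of a kind and less RNA per cell cannot be told apart.

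In macroautophagy, cytoplasmic cargo is enclosed in a double membrane, the autophagosome, which then fuses with the lysosome, where acid hydrolases break the cargo down and free its amino acids. Amino acids, arginine among them, keep the kinase complex mTORC1 active at the lysosome, and active mTORC1 holds back both the start of autophagy and the nuclear entry of TFEB and TFE3, transcription factors of lysosomal genes. The genes measured here cover 4 roles. SQSTM1 (p62) is a cargo receptor, MAP1LC3B encodes LC3B, the ubiquitin-like protein attached to autophagosome membranes, and WIPI1 binds phosphatidylinositol 3-phosphate where the membrane forms. LAMP1 and LAMP2 are the main glycoproteins of the lysosomal membrane. CTSD (cathepsin D, an aspartic protease), GRN (progranulin, processed to granulins in the lysosome) and FUCA2 (a secreted and lysosomal alpha-fucosidase) are lumenal or secreted, and M6PR, the cation-dependent mannose 6-phosphate receptor, sorts hydrolases from the Golgi towards the lysosome.

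Library totals were 4670881 to 7967215 counts for RNA and 2063952 to 4364383 for footprints. Levels are given as CPM, a gene's share of the counts of its library on a fixed scale, with the library total scaled by the TMM factor of the test, so each level depends on what else the assay counted. Transcript lengths were not used here, and levels are therefore compared between treatments and not between genes. A gene is called changed when its adjusted p is under 0.05 in edgeR's quasi-likelihood test over all transcripts of the assay, and every fold change is starved over fed. All 9 genes passed the filter on low counts in both assays. The 6 libraries of an assay gave between 39 and 4268 RNA counts and between 8 and 1853 footprint counts per gene, and the lowest values belonged to WIPI1.

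RNA of the 3 autophagosome genes rose under arginine starvation, while RNA of 2 lysosomal genes fell slightly. Of the 9 genes 5 were called, SQSTM1, MAP1LC3B and WIPI1 higher and LAMP1 and GRN lower, and 4 were not. Calls were common in these cells: 67.9% of the 11572 transcripts tested were called, 33.8% higher and 34.1% lower. The 9 genes were thus not called more often than transcripts in general, in either direction. The median log2 fold change was 0.07 over the 9 genes and −0.01 over all transcripts tested. The sign of the median of the 9 genes turned with the scaling: it was −0.0448 with library totals alone and −0.0810 with a smooth trend on abundance removed from each library, with 6 of the 9 estimates below 0 in both. Fed and starved RNA values did not overlap for 8 of the 9 genes, against 69.8% of all tested transcripts. The 8 genes include LAMP2, FUCA2 and M6PR, which were not called. The estimates of FUCA2 and M6PR turned below 0 with library totals alone (−0.0476 and −0.0181), so their separation depends on the scaling. The median SE was 0.07 over the 9 genes and 0.10 over all transcripts tested.

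In footprints 5 of the 9 genes were called: SQSTM1 and MAP1LC3B rose, and LAMP1, GRN and FUCA2 fell. Over all 13457 transcripts tested, 39.8% were called, 18.9% higher and 20.9% lower. The median footprint log2 fold change was −0.25 over the 9 genes and 0.05 over all transcripts tested, and −0.0942 over the 9 genes with the abundance trend removed. Fed and starved footprint values did not overlap for 8 of the 9 genes, against 50.7% of tested transcripts. The 8 genes include LAMP2, CTSD and M6PR, which were not called. The LAMP2 groups nearly touched, with 78.9 CPM in the lowest fed and 78.8 CPM in the highest starved library. The median SE was 0.12 over the 9 genes and 0.19 over all transcripts tested, so the 9 genes were measured more closely than most.

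**Figure D1:**
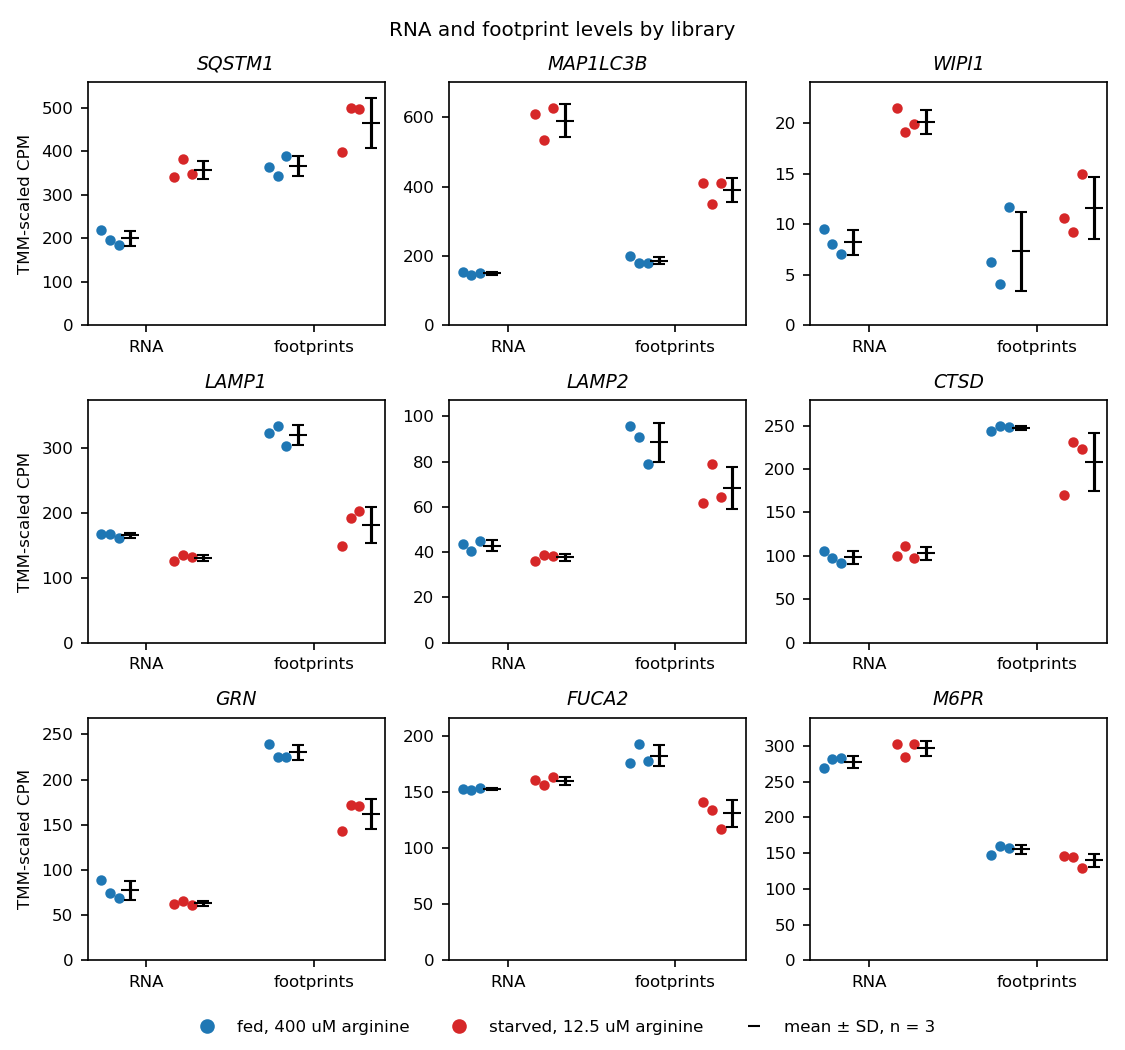
TMM-scaled CPM of each gene in every RNA and footprint library; points are libraries (blue fed, red starved) and black marks are the mean ± SD of 3 libraries. MAP1LC3B RNA lies between 145 and 154 CPM in fed and between 536 and 626 CPM in starved libraries, and LAMP1 footprints drop from 303 CPM or more to 202 CPM or less.

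MAP1LC3B (ENST00000268607) changed most among the 9 genes in RNA. Its fed RNA libraries had 154, 145 and 151 CPM and its starved libraries 611, 536 and 626 CPM. The rise was 3.93-fold, a log2 fold change of 1.98 (SE 0.07, 95% confidence interval 1.83 to 2.12, edgeR adjusted p = 5.45e-34), and 131 of the 11572 transcripts tested had a higher RNA log2 fold change. Footprints on MAP1LC3B went from 199, 180 and 181 CPM in fed to 410, 349 and 409 CPM in starved libraries. The groups were again far apart, yet the rise was smaller, 2.09-fold (log2 fold change 1.06, SE 0.12, 95% confidence interval 0.80 to 1.32, edgeR adjusted p = 2.95e-05).

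SQSTM1 (ENST00000389805) RNA stood at 218, 196 and 184 CPM in fed and 341, 381 and 347 CPM in starved libraries. All starved libraries were above all fed ones, and RNA rose 1.78-fold (log2 fold change 0.83, SE 0.07, edgeR adjusted p = 1.91e-16). Its footprints were 363, 344 and 389 CPM in fed and 398, 498 and 497 CPM in starved libraries. Here starved replicate 1 lay close to the highest fed library, and the rise of 1.27-fold was near the threshold (log2 fold change 0.35, SE 0.12, 95% confidence interval 0.08 to 0.61, edgeR adjusted p = 0.0396). The footprint call was lost without fed replicate 1, 2 or 3 or starved replicate 2 or 3, with edgeR adjusted p of 0.110, 0.175, 0.0824, 0.117 and 0.131. It was also lost with no filter on low counts (edgeR adjusted p = 0.100) and in the Wald test of DESeq2 (adjusted p = 0.0588).

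WIPI1 (ENST00000262139) was the least counted of the 9 genes. Its RNA was 9.55, 8.02 and 7.09 CPM in fed and 21.5, 19.1 and 19.9 CPM in starved libraries, a 2.43-fold rise without overlap (log2 fold change 1.28, SE 0.15, edgeR adjusted p = 1.82e-11). Footprints were 6.22, 4.04 and 11.7 CPM in fed and 10.6, 9.23 and 15.0 CPM in starved libraries. The groups overlapped because of fed replicate 3, and the footprint log2 fold change of 0.73 (SE 0.33, 95% confidence interval 0.00201 to 1.45) did not pass the test (edgeR adjusted p = 0.101). Single libraries moved it both ways. Without fed replicate 3 it was 1.08 (edgeR adjusted p = 0.0306), without fed replicate 2 it was 0.47 (edgeR adjusted p = 0.292), and without starved replicate 3 it was 0.46 (edgeR adjusted p = 0.354). WIPI1 had 8 to 56 footprint counts per library, and its interval reaches up to 2.73-fold.

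The 2 lysosomal membrane glycoproteins both had lower estimates in starved cells in both assays. LAMP1 (ENST00000332556) RNA was 167, 167 and 161 CPM in fed and 125, 135 and 132 CPM in starved libraries, a fall to 0.791-fold (log2 fold change −0.34, SE 0.07, edgeR adjusted p = 2.05e-05). Its footprints fell further, from 322, 333 and 303 CPM to 149, 192 and 202 CPM. The starved footprint libraries all lay below the fed ones, at 0.568-fold (log2 fold change −0.81, SE 0.13, 95% confidence interval −1.11 to −0.52, edgeR adjusted p = 0.000484), and 1503 of the 13457 transcripts tested had a lower footprint log2 fold change. LAMP2 (ENST00000434600) missed the threshold in both assays. Its RNA was 43.4, 40.3 and 45.1 CPM in fed and 36.1, 38.9 and 38.4 CPM in starved libraries (log2 fold change −0.19, SE 0.09, 95% confidence interval −0.38 to −0.00212, edgeR adjusted p = 0.0682). LAMP2 footprints were 95.6, 90.8 and 78.9 CPM against 61.8, 78.8 and 64.4 CPM (log2 fold change −0.38, SE 0.14, 95% confidence interval −0.69 to −0.07, edgeR adjusted p = 0.0525). The LAMP2 footprint difference passed without fed replicate 3 (−0.48, edgeR adjusted p = 0.0448) or starved replicate 2 (−0.49, edgeR adjusted p = 0.0261), with DESeq2 size factors in edgeR (adjusted p = 0.0499) and with limma-voom (adjusted p = 0.0483). Its RNA difference passed with library totals alone (−0.30, edgeR adjusted p = 0.00421) and with the abundance trend removed (−0.20, edgeR adjusted p = 0.0498).

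Among the lumenal and secreted proteins, GRN (ENST00000053867) fell in both assays. GRN RNA was 88.6, 74.3 and 69.3 CPM in fed and 62.6, 66.1 and 61.0 CPM in starved libraries. The groups did not overlap, but fed replicate 1 stood highest and the call was lost without it: RNA was 0.813-fold (log2 fold change −0.30, SE 0.08, edgeR adjusted p = 0.00145), and without fed replicate 1 the log2 fold change was −0.18 (edgeR adjusted p = 0.0603). GRN footprints were 239.6, 226 and 225 CPM in fed and 143, 172 and 171 CPM in starved libraries, a fall to 0.704-fold (log2 fold change −0.51, SE 0.12, edgeR adjusted p = 0.0056) that was called without any 1 footprint library.

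FUCA2 (ENST00000002165) had a called footprint change and no called RNA change. Its RNA libraries had 153, 152 and 154 CPM in fed and 161, 156 and 163 CPM in starved cells, and the log2 fold change of 0.07 (SE 0.07, 95% confidence interval −0.07 to 0.20) did not pass the test (edgeR adjusted p = 0.404). Its footprints dropped from 176, 193 and 178 CPM to 141, 134 and 117 CPM. Every starved footprint library lay below every fed one, at 0.718-fold (log2 fold change −0.48, SE 0.12, edgeR adjusted p = 0.00849). CTSD (ENST00000236671) was called in neither assay. CTSD RNA was 105, 97.9 and 91.2 CPM in fed and 100.2, 112 and 97.4 CPM in starved libraries, with overlap (log2 fold change 0.07, SE 0.08, 95% confidence interval −0.08 to 0.22, edgeR adjusted p = 0.441). Its footprints were 244, 249 and 248 CPM in fed and 170.1, 231 and 223 CPM in starved libraries (log2 fold change −0.25, SE 0.13, 95% confidence interval −0.54 to 0.04, edgeR adjusted p = 0.159). The spread among starved footprint libraries, with replicate 1 lowest, was far wider than that among fed ones (SD 33.0 and 2.61 CPM, n = 3), and without starved replicate 1 the footprint log2 fold change of CTSD was −0.14.

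The sorting receptor M6PR (ENST00000000412) was called in neither assay. Its RNA was 268, 282 and 283 CPM in fed and 303, 285 and 302 CPM in starved libraries (log2 fold change 0.10, SE 0.07, 95% confidence interval −0.04 to 0.23, edgeR adjusted p = 0.210). M6PR footprints were 148, 160.4 and 158 CPM against 146, 144 and 129.9 CPM (log2 fold change −0.15, SE 0.12, 95% confidence interval −0.41 to 0.11, edgeR adjusted p = 0.330). These intervals leave room for a rise of up to 1.17-fold in RNA and a fall to 0.754-fold in footprints. The RNA estimates of CTSD, FUCA2 and M6PR were above 0 with TMM factors but below 0 with library totals alone, which moved the median RNA log2 fold change of all transcripts from −0.01 to −0.12. No RNA direction is therefore given for these 3 genes.

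**Figure D2:**
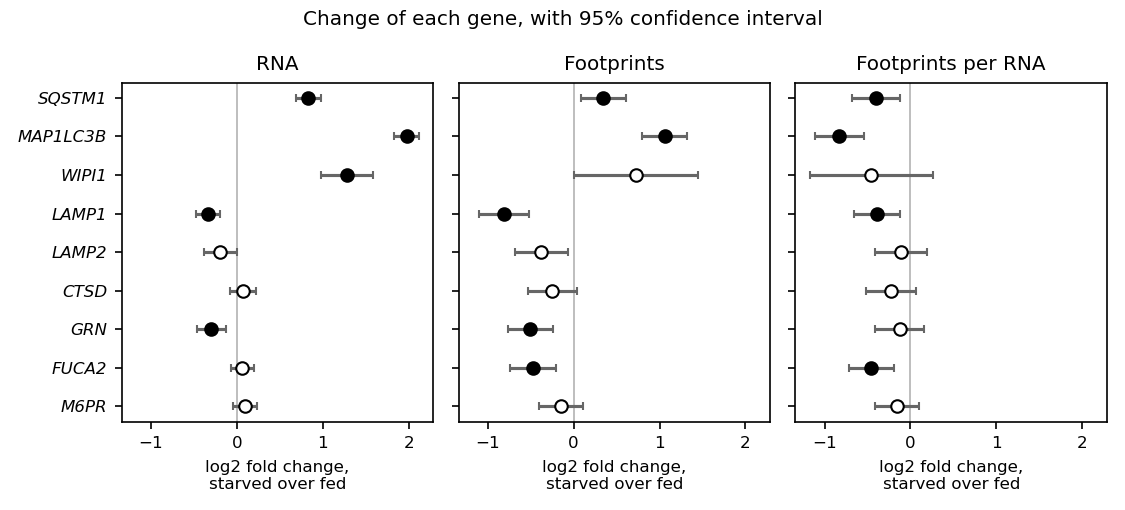
Log2 fold change (starved over fed) of each gene in RNA, in footprints and in footprints per RNA, with 95% confidence intervals from edgeR; filled points had an adjusted p under 0.05. The RNA panel splits into 3 genes well above 0 and 6 near or below it, while all 9 points of the right-hand panel lie below 0.

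The footprint to RNA ratio, called translational efficiency, was compared between treatments through an assay by treatment interaction in 1 model of all 12 libraries. This model has its own TMM factors, found over the transcripts kept in both assays, so its log2 values are not exactly the difference of the footprint and RNA values given above. Of the 9 genes 4 had a called fall of efficiency, MAP1LC3B, FUCA2, SQSTM1 and LAMP1, and 0 had a called rise. The background was 22.8% of 11027 transcripts called, 11.7% lower and 11.1% higher. All 9 estimates were below 0, with a median log2 fold change of −0.39, against 52.4% of all transcripts below 0 and a median of −0.02. The median of the 9 genes was −0.25 without fed footprint replicate 3 and −0.14, with 7 of the 9 estimates below 0, with the abundance trend removed. MAP1LC3B had the steepest fall, to 0.562-fold (log2 fold change −0.83, SE 0.14, 95% confidence interval −1.11 to −0.55, edgeR adjusted p = 0.000244), and 349 of the 11027 transcripts had a lower efficiency log2 fold change. FUCA2 fell to 0.728-fold (−0.46, SE 0.13, edgeR adjusted p = 0.0128).

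SQSTM1 fell to 0.757-fold in efficiency (−0.40, SE 0.13, edgeR adjusted p = 0.0364) and LAMP1 to 0.763-fold (−0.39, SE 0.13, edgeR adjusted p = 0.0355), both close to the threshold. The SQSTM1 call was lost without fed RNA replicate 2 or 3, starved RNA replicate 2 or 3, fed footprint replicate 1 or 3 or starved footprint replicate 1, with edgeR adjusted p from 0.0545 to 0.0818. The LAMP1 call was lost without any 1 fed RNA library, starved RNA replicate 2 or 3, fed footprint replicate 1 or 2 or starved footprint replicate 1, with edgeR adjusted p from 0.0506 to 0.0721. Library totals alone left 2 of the 4 calls, MAP1LC3B and FUCA2, and the calls of these 2 genes held without any 1 of the 12 libraries. The other 5 genes did not pass: WIPI1 (−0.45, SE 0.34), CTSD (−0.23, SE 0.14), M6PR (−0.16, SE 0.12), GRN (−0.13, SE 0.14) and LAMP2 (−0.11, SE 0.14) had edgeR adjusted p of 0.368, 0.249, 0.372, 0.552 and 0.621. Leaving out 1 library moved these 5 estimates widely, between −0.71 and −0.11 for WIPI1 (without starved footprint replicate 3 and fed footprint replicate 3), between −0.29 and −0.13 for CTSD (fed RNA replicate 1 and starved footprint replicate 1) and between −0.22 and −0.0935 for M6PR (starved footprint replicates 1 and 3). The ranges were −0.25 to −0.0749 for GRN (without fed RNA replicate 1 and starved footprint replicate 1) and −0.21 to −0.0370 for LAMP2 (without starved footprint replicate 2 and fed footprint replicate 1), and none of the 5 was called without any 1 library.

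Across the whole table, the efficiency log2 fold change was lower for transcripts with more RNA. RNA level here is CPM, which was not scaled by transcript length. In 5 equal bins of the 11027 transcripts, ordered by RNA level, the bin with the most RNA held 5 of the 9 genes, SQSTM1, MAP1LC3B, LAMP1, FUCA2 and M6PR, and in that bin 24.8% of transcripts had a called fall of efficiency, 67.4% had an estimate below 0 and the median was −0.16. The next bin held CTSD and GRN, with 16.6% called lower and a median of −0.11. With a smooth trend on abundance removed from each library, MAP1LC3B alone of the 9 genes had a called efficiency change (−0.57, edgeR adjusted p = 0.00728). The estimates were then −0.23 for FUCA2, −0.15 for SQSTM1 and −0.14 for LAMP1, with edgeR adjusted p of 0.199, 0.474 and 0.484, and those of GRN and M6PR were above 0. MAP1LC3B thus passed with and without the trend, and the other 3 genes passed only with it. The part of abundance in their falls was not tested further.

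**Figure D3:**
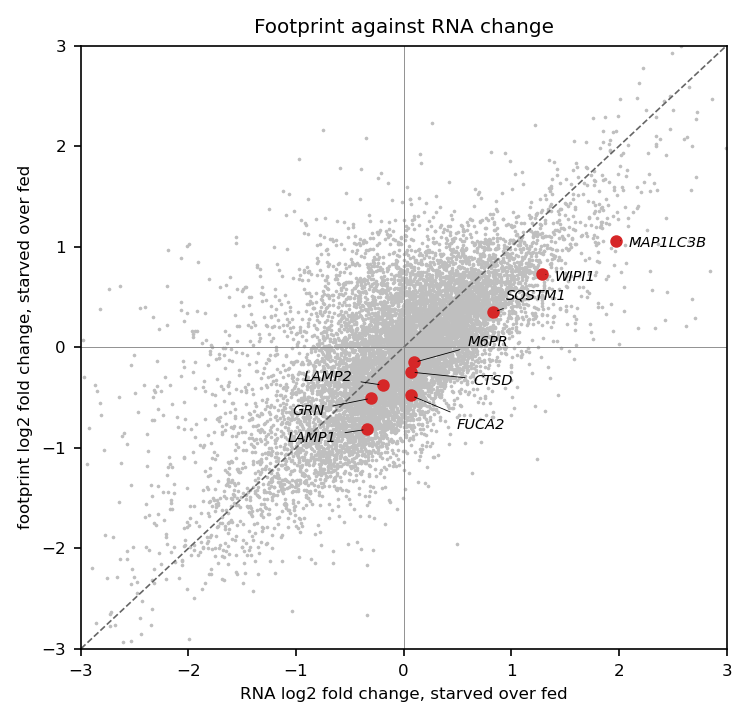
Footprint log2 fold change against RNA log2 fold change (both starved over fed) for 11027 transcripts (grey) and the 9 genes (red); the dashed line marks equal change, and 73 transcripts lie outside the axes. All 9 genes sit below the line, MAP1LC3B at 1.98 in RNA and 1.06 in footprints.

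In fed cells the 9 genes differed widely in footprints per RNA. Each ratio divides a footprint library by the RNA library of the same treatment and number, with the TMM factors of the efficiency test rather than those behind the CPM given above. The labels do not state whether libraries of the same number came from the same culture. A ratio needs no transcript length as long as both assays were counted over the same part of the transcript, which is not given in the sources used here. The fed ratio was highest for GRN at 3.08 ± 0.287 and CTSD at 2.59 ± 0.210 (SD, n = 3), above 92.4% and 89.7% of the 11007 transcripts with a ratio in every library, and the libraries of GRN and CTSD overlapped. LAMP2 at 2.12 ± 0.285, LAMP1 at 1.99 ± 0.0635 and SQSTM1 at 1.89 ± 0.244 followed (SD, n = 3) and did not differ beyond their spread. MAP1LC3B at 1.28 ± 0.0489 and FUCA2 at 1.22 ± 0.0707 were likewise within their spread (SD, n = 3). WIPI1 at 0.959 ± 0.639 rested on fed number 3 and was 0.592 without it, and M6PR was lowest at 0.574 ± 0.0118 (SD, n = 3). WIPI1 overlapped both of its neighbours in this order, FUCA2 and M6PR. The median over all transcripts was 0.965, so GRN and CTSD carried many footprints for their RNA and M6PR few.

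Starved and fed ratios did not overlap for 5 of the 9 genes, SQSTM1, MAP1LC3B, LAMP1, FUCA2 and M6PR, and all 5 were lower in starved cells. Over all transcripts 37.8% did not overlap, and 20.1% had all starved ratios below all fed ones. With every footprint library set over every RNA library of its treatment, 4 genes kept all starved ratios below all fed ones, against 11.9% of transcripts, and M6PR overlapped (0.538 to 0.610 in fed and 0.458 to 0.580 in starved). MAP1LC3B went from 1.32, 1.28 and 1.23 in fed to 0.756, 0.699 and 0.702 in starved libraries, from above 63.8% of transcripts to above 36.3%. M6PR, whose efficiency did not pass the test, went from 0.563, 0.586 and 0.572 to 0.542, 0.543 and 0.461. GRN and CTSD stayed at the top of the 9 genes in starved cells, at 2.79 ± 0.217 and 2.20 ± 0.272 (SD, n = 3), while MAP1LC3B at 0.719 ± 0.0323 (SD, n = 3) came below FUCA2 at 0.894 ± 0.111 (SD, n = 3).

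**Figure D4:**
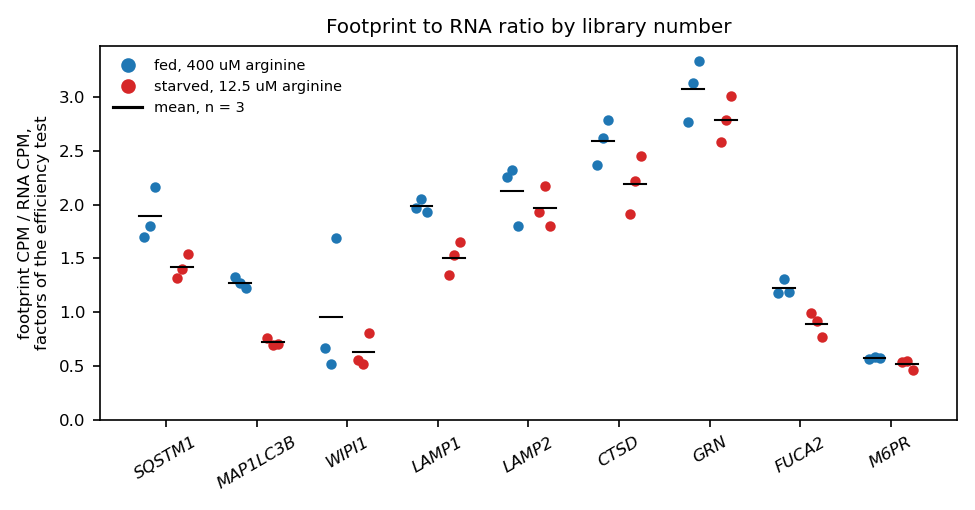
Footprint CPM divided by RNA CPM for each gene, both scaled with the factors of the efficiency test, by library number (blue fed, red starved; black line, mean of 3). Every MAP1LC3B ratio is at least 1.23 in fed and at most 0.756 in starved libraries, and in fed cells the genes run from a mean of 0.574 for M6PR to 3.08 for GRN.

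TFEB and TFE3 bind E-boxes with the core CACGTG, found in promoters of many lysosomal genes, so the promoters were searched for it beside the RNA changes. RefSeq windows (GRCh38.p14, 250 bases before to 50 after a gene start) matched 8 of the 9 genes by symbol, with 11 windows. The start that the counted transcript uses was not checked. CACGTG on either strand was in 7.26% of all 35116 windows. The genes with a match were LAMP1, CTSD and M6PR, of which LAMP1 RNA fell and the other 2 were not called. No window of SQSTM1, MAP1LC3B, WIPI1, GRN or FUCA2 held these letters, as was so for most windows of all genes. RNA of the first 3 of these genes rose, that of GRN fell and that of FUCA2 was not called. Whether TFEB or TFE3 acted on any of the genes was not tested. LAMP1 had 5 copies in the 250 bases before its start, at 192, 176, 159, 142 and 28 bases before it, and 1 more across the start. Of all 35116 windows, 1 had 5 or more copies in that stretch, the one of LAMP1. CTSD had 1 copy at 47 bases, and M6PR 1 copy at 80 bases before the inner of its 2 starts. The stretches before the starts of LAMP1 and CTSD (chr13:113296989-113297238, plus strand, and chr11:1763928-1764177, minus strand) are shown 5′ to 3′ with CACGTG in capitals, to set the dense cluster beside a single copy.
LAMP1: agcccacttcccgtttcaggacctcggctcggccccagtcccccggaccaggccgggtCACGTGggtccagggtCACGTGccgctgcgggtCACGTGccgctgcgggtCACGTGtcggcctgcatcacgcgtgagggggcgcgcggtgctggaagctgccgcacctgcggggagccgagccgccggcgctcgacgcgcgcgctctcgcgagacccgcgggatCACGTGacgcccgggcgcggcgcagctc
CTSD: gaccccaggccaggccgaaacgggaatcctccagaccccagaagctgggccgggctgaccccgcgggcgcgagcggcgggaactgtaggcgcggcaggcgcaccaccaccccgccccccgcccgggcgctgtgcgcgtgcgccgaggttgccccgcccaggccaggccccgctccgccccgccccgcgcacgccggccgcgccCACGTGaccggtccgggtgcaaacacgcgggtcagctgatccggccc

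Other motifs were searched in the same windows. TCACGTG, which overlaps CACGTG, was in the same 3 genes and in 3.71% of all windows. The longer palindrome of the CLEAR element was in 0.353% of all windows and in none of the 11 windows of these genes. With so rare a motif, its absence from 11 windows does not set these genes apart. TGATGNAA, a letter pattern of C/EBP-ATF elements read by ATF4 in amino acid shortage, was in 3.62% of all windows and in M6PR alone of these genes. TGACNNNGC, the core of the antioxidant response element bound by NRF2, was in 13.3% of windows and in those of LAMP1, CTSD and MAP1LC3B. GTAAACA, a forkhead motif, was in 3.42% of windows and in none of these. All were searched on both strands, a match is a description of letters and not of a bound site, and elements outside these windows were not searched. The stretch before the start of MAP1LC3B, the gene with the largest RNA rise among the 9 (chr16:87392086-87392335, plus strand, GRCh38.p14), is shown with its match to TGACNNNGC at 46 bases before the start in capitals.
MAP1LC3B: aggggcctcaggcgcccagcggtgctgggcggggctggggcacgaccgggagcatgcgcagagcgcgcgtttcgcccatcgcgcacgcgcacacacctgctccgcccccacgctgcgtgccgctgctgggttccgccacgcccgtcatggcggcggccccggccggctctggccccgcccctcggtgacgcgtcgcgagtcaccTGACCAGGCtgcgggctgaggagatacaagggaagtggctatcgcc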

How the data were processed

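The authors deposited raw counts per Ensembl transcript, 1 table for each assay, and the values were checked to be whole numbers. Per the labels' protocols, RNA libraries were made with a TruSeq kit, and RiboCop depleted ribosomal RNA. The submitters' processing notes name GRCh38.p13 and, per the same notes, STAR, cutadapt, DESeq2 and UMI-tools. The counter, the annotation release, how shared reads were treated and the counted region were not given in the sources used here, so counts per transcript may include reads of other isoforms and footprints outside the coding sequence.

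Gene symbols came with the list of identifiers. Of 19849 identifiers 0 matched the gene tables used here, so the lists of other lysosome and autophagy genes, protein features and cell type markers were not analysed here. Members, lists and alternatives were chosen with earlier results of these data known, and all members with rows are named.

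Tests were two-sided and used R 4.3.3 with edgeR 4.0.16 (quasi-likelihood test, TMM factors, filterByExpr, Benjamini-Hochberg adjustment over all tested transcripts), with treatment as the only term in each assay. Standard errors are the size of the log2 fold change divided by the square root of the test's F, and confidence intervals follow from them. Efficiency was the interaction of assay and treatment, with TMM factors found separately by assay, over transcripts that passed both filters; ratios use those factors. Alternatives were DESeq2 size factors, library totals, no filter, the Wald test of DESeq2 1.42.0, limma-voom (limma 3.58.1), removal of a lowess trend (span 0.3) of each library on abundance, a replicate block and leaving out each library. The scripts were tested on simulated data that held no trend of efficiency with abundance, so that test does not bear on such a trend. No 2 replicates held identical values, and chi-square per degree of freedom between replicates, for transcripts whose 2 counts summed to 20 or more, was 2.07 to 7.73. All values are relative within an assay, so a change of total RNA or total translation is not measured.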

Additional observations from a re-analysis of the deposited data

Results flagged for a closer look

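FUCA2 was the only one of the 9 genes with a called interaction of assay and treatment and estimates of opposite sign in RNA (0.07) and footprints (−0.48): the interaction, fitted with its own scaling factors over transcripts kept in both assays, had a log2 value of −0.46 (SE 0.13, edgeR adjusted p = 0.0128). Its RNA estimate was not called and was −0.05 with library totals alone, where both signs were the same. Groups of 3 libraries were not searched for outlying libraries.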

How the results depend on the processing

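The counts of called genes in RNA (5) and footprints (5) stayed within 4 to 6 under every alternative run, and leaving out 1 library gave 4 to 5 in RNA and 4 to 6 in footprints. The count of 4 genes with a called efficiency change was 2 with library totals, 1 with the abundance trend removed and 2 to 4 without 1 library. Calls of MAP1LC3B in all 3 comparisons, of SQSTM1, WIPI1 and LAMP1 in RNA and of LAMP1, GRN and FUCA2 in footprints held under every alternative run. RNA estimates that were not called changed sign with library totals for CTSD (−0.0448), FUCA2 (−0.0476) and M6PR (−0.0181) and with the trend removed for CTSD (−0.0732), FUCA2 (−0.108) and M6PR (−0.0810). Efficiency estimates that were not called changed sign with the trend removed for GRN (0.0281) and M6PR (0.0652). Leaving out 1 library left 7324 to 7680 transcripts called in RNA, 4157 to 5072 in footprints and 1905 to 2538 in efficiency. Library totals moved the split of efficiency calls over all transcripts from 1227 higher and 1292 lower to 1567 higher and 803 lower. The cause of these shifts was not tested, beyond the scaling itself.

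Same-numbered libraries shared little of their deviations. Those of fed and starved libraries correlated at −0.0044 to 0.114 in RNA and −0.189 to −0.0058 in footprints. Those of RNA and footprint libraries correlated at −0.0187 to 0.128, and not every library correlated best with its own number. With 3 libraries per group, these values cannot settle whether the numbers pair the libraries. With the replicate block 5 genes were called in RNA, 4 in footprints (without SQSTM1, edgeR adjusted p = 0.0826) and 2 in efficiency (MAP1LC3B and FUCA2). With same-numbered RNA and footprint libraries as the block, efficiency was called for 4 genes. Depth limits WIPI1 most, with 8 to 56 footprint counts in a library. The ratio alternatives, library totals, each number left out and every pairing of libraries, were added after the data were seen; library totals lowered the fed ratio of MAP1LC3B from 1.28 to 1.17.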
